A study of Homo sapiens with 16 samples.

Results

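These results concern a sucrose gradient of human cells treated with arsenite, and the division of each mRNA between its fractions 1 to 3, called light here, and its fractions 4 to 6, called heavy. The material was 293S, an established line of the HEK293 family of kidney-derived cells, kept as an adherent monolayer and given 1 mM sodium arsenite for 30 minutes. The 8 libraries of this gradient, out of 16 in the series, were taken by their column names, and all 13148 genes of the deposited table were used. The 8 groups shared the cells and the treatment and differed in fraction number alone, with 1 library each, so nothing below could be checked against a second library or carries a p-value. The sources used here do not state which end of the gradient fraction 1 was, and light and heavy are names for fraction numbers.

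Arsenite is a poison that binds thiols and sets off several kinases that phosphorylate the initiation factor eIF2, which lowers the start of translation on most mRNAs while a few with upstream reading frames continue. In a sucrose gradient an mRNA sediments with what is bound to it, and a long reading frame has room for more ribosomes than a short one. An mRNA can also sediment with other large assemblies, and the gradient alone does not show which.

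Each deposited value was the share of a gene's summed signal that was found in a given fraction, so the values say where an mRNA lay and nothing of how abundant it was. The depth behind a share is unknown. Over all genes the median share in light fractions was 67.5%, with quartiles of 54.5% and 79.1%. The median share in heavy fractions was 30.2%, with quartiles of 19.2% and 42.3%, and fractions 7 and 8 together held a median of 2.28%. The heavy share was the larger for 2199 genes, or 16.7%. These levels depended on how the authors weighted the fractions against each other, since with median-of-ratios size factors the median light share was 39.5%. Fraction 3 stood apart from the other libraries in the number of genes listed at 0, which was 728 against 58 to 295 in the others, and 8.47% of genes had at least one 0.

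To order the mRNAs, the log2 ratio of the heavy share to the light share was taken after adding 1 percentage point to each, and the median of all genes was subtracted. In this relative log2 ratio, 0 is the median gene and 1 is a ratio 2-fold that of the median gene. Genes at 1 or more are said to lean heavy, and there were 2578 (19.6% of genes). Genes at −1 or less are said to lean light, and there were 2810 (21.4%). These percentages are the background for each count of list members below that uses all fractions and the deposited shares. Of the called genes, 1578 heavy and 1282 light ones kept the call when each of fractions 1 to 6 was left out in turn. Without fractions 1 to 6 in turn, 2591, 2046, 3558, 3009, 2306 and 2539 of all genes leaned heavy. In the same order, 2001, 2618, 3639, 3164, 2530 and 2812 leaned light. These counts are the background for list counts made without a fraction. With size factors no gene called on one side was called on the other, and 2399 of the heavy and 2678 of the light genes were called again.

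The profiles had few shapes. The largest share lay in fraction 1 for 1874 genes (14.3%), in fraction 2 for 4542 (34.5%), in fraction 3 for 4886 (37.2%), in fraction 4 for 737 (5.61%) and in fraction 5 for 1108 (8.43%). A single gene, which had a 0, peaked in fraction 6, and none peaked in fractions 7 or 8. Across genes, the share in fraction 5 ran with the shares in fractions 4, 6, 7 and 8, with Spearman correlations of 0.69, 0.86, 0.79 and 0.65. It ran against the shares in fractions 1 and 2 (−0.52 and −0.59) and showed little relation to fraction 3 (0.11). Shares of a gene sum to 100%, so these correlations over 13148 genes are tied to each other and describe this gradient only.

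The order followed the length of the mRNA and of its protein. The relative ratio had a Spearman correlation of 0.64 with protein length and of 0.64 with mRNA length over the 13034 genes matched to an annotated transcript. The correlation was 0.33 with the length of the 3′ untranslated region and 0.09 with that of the 5′ untranslated region. Genes were then split into 10 bins by protein length. In the shortest bin, of 24 to 184 residues, the median relative ratio was −1.45, 65.0% of genes leaned light and 0.835% peaked in fraction 5. In the longest bin, of 1194 residues and over, the median was 1.48, 71.2% leaned heavy and 41.8% peaked in fraction 5. The medians of the 8 bins in between rose with length at each step, from −0.88 to 0.75. The median share in fraction 1 was 38.8% in the shortest bin and 6.26% in the longest.

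**Figure D1:**
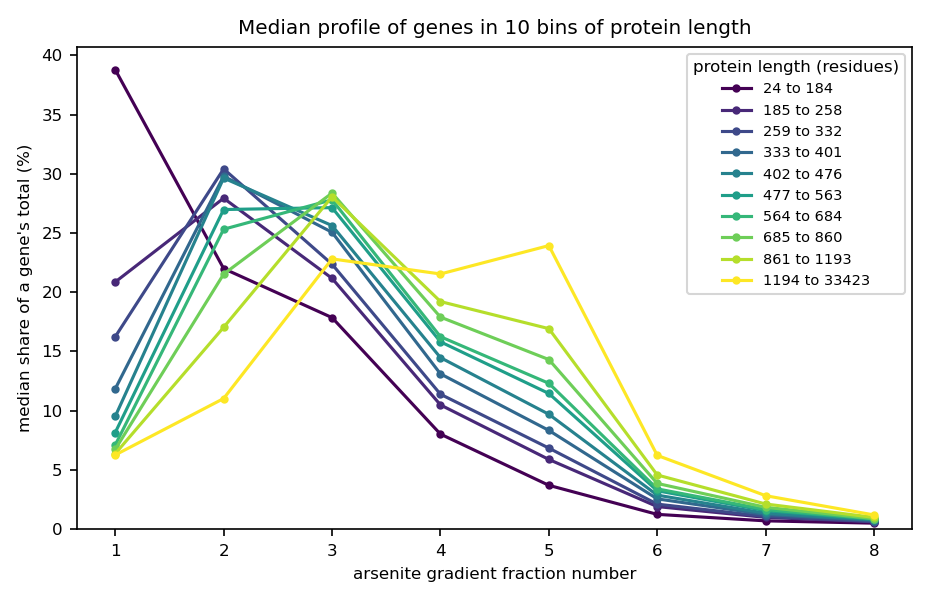
Median share (vertical axis, percent of a gene's total) in each of the 8 arsenite fractions (horizontal axis) for genes in 10 bins of protein length, 1 line per bin. The shortest bin peaks in fraction 1 at 38.8%, and the line of the longest bin has its largest value in fraction 5, at 23.9%.

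Protein length and 3′ untranslated length were also compared with the ratio once total length was held alike. Within 10 bins of mRNA length the ratio still had correlations of 0.22 to 0.64 with protein length. Its correlations with 3′ untranslated length there were −0.46 to −0.01. At like total length a longer reading frame leaves less untranslated sequence, so these ranges are largely tied and are not separate results. Among mRNAs of like total length, those with the longer reading frame tended to lie heavier. Within 10 bins of protein length, the correlation with 3′ untranslated length was 0.23 to 0.44. Each gene was given 1 annotated transcript, which need not be the form present in these cells.

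The 10 genes leaning furthest to the light side, with no 0 and with a call that held without any single fraction, encode small proteins of 79 to 198 residues. They were PLGRKT, MIF, SEPW1, FKBP1B, SH3BGRL3, ROMO1, PPDPF, HCFC1R1, PRADC1 and C19orf81, with relative ratios from −3.53 for PLGRKT to −3.18 for C19orf81. MIF, a secreted inflammatory cytokine, had 79.0% of its total in fraction 1, 12.2% in fraction 2, 5.47% in fraction 3, and 2.93% in fractions 4 to 6 together. ROMO1, a small protein of the mitochondrial inner membrane, had 78.2% in fraction 1 and 3.59% in the heavy fractions. PLGRKT, a receptor for plasminogen, had 70.6% and 2.83%.

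Genes leaning light had a median protein of 251 residues and a median mRNA of 1672 nt, against 476 residues and 3155 nt for all genes. SEPW1 encodes selenoprotein W, and its whole reading frame is printed here as a shorter case from the light end. It spans chr19:47778786-47781370 on the plus strand of GRCh38, in exons 1 to 5 of 6 of the annotated transcript, and has 264 nt. Capitals mark the start codon, the in-frame TGA that is read as selenocysteine, and the stop codon.
SEPW1: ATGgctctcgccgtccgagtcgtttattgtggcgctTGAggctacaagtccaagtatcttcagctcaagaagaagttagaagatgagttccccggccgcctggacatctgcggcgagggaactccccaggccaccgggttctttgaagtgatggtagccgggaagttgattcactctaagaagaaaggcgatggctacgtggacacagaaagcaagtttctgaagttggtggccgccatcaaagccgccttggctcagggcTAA
Its mRNA had 64.6% of its total in fraction 1, 20.5% in fraction 2, 10.7% in fraction 3 and 3.45% in the heavy fractions, a relative ratio of −3.31. Another selenoprotein, TXNRD1, the cytosolic thioredoxin reductase, lay at 1.84, with 30.5% in fraction 5, and was the heaviest of 25 early stress and immediate-early genes.

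The genes with the highest shares in single light fractions were different kinds of gene. CMC1, a factor for the assembly of cytochrome oxidase, had 83.3% in fraction 1, TPRKB, a subunit of a tRNA-modifying complex, had 82.6%, and PDCD5, a protein linked to cell death, had 79.7%. ETV4, a transcription factor of the ETS family, had 74.4% in fraction 2, and MRAP2, an accessory protein of melanocortin receptors, had 71.4%. MTRNR2L8 had 73.9% there and is a close copy of part of the mitochondrial ribosomal RNA, so its reads could come from elsewhere. In fraction 3 the highest were FRRS1L (78.7%), PDZD7 (76.6%) and CORO6 (76.3%). Each of these 9 light calls rests on the library that holds the peak. Without it the relative ratio was −0.86 for CMC1, 0.39 for TPRKB, −0.73 for PDCD5, −0.30 for ETV4, 0.02 for MRAP2, 1.53 for MTRNR2L8, 1.38 for FRRS1L, −0.19 for PDZD7 and 0.05 for CORO6. The call of FRRS1L was also lost without fraction 4 (−0.90), and that of MTRNR2L8 without fractions 5 and 6 (−0.65 and −0.99).

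The mRNAs of cytosolic ribosomal proteins leaned light, but with 2 separate peaks. Of 80 measured, 62 leaned light and 1, the paralog RPL7L1, leaned heavy, with a median relative ratio of −1.49. In fraction 1 their median share was 42.1%, against 14.4% in fraction 2 and 28.7% in fraction 3. Fraction 2 lay below both of its neighbours for 67 of them (83.8%), against 1056 of all genes (8.03%, and 7.91% of those with no 0) and 304 of the 1317 genes in the shortest bin (23.1%). RPL38, the middle member, had 41.5% in fraction 1, 15.4% in fraction 2 and 29.0% in fraction 3. RPL37 had 16.4%, 4.46% and 73.8%, and RPS3A, with 20.8%, 34.0% and 26.6%, had no dip. Fraction 1 was the peak for 55, fraction 3 for 22 and fraction 2 for 2.

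Histone mRNAs of the replication-dependent kind, which carry a stem-loop instead of a poly(A) tail, had the same dip. It was present in 35 of 53 (66.0%), and the median shares were 43.0% in fraction 1, 15.2% in fraction 2 and 24.3% in fraction 3. There were 37 that leaned light and 1, HIST1H1T, that leaned heavy (2 with fraction 3 or 5 left out). HIST1H1T was listed at 0 in 4 fractions and had 42.1% in fraction 1 and 53.4% in fraction 4, and its ratio of 1.55 was −1.45 without fraction 4, and 0.76 and 0.75 without fractions 2 and 3. HIST1H1A, a linker histone, had 68.1% in fraction 1, and the copies of histone genes can share reads.

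Other short mRNAs mostly ran down from fraction 1 without a dip. Of 76 mitochondrial ribosomal proteins, 64 leaned light, none leaned heavy and 14 (18.4%) had the dip, with median shares of 45.0%, 23.1% and 15.9% in fractions 1 to 3. Of 37 subunits of complex I of the respiratory chain, 34 leaned light and 12 (32.4%) had the dip, with median shares of 60.3%, 16.9% and 14.0%. NDUFB1, a small subunit, had 74.0% in fraction 1, and NDUFS1, a core subunit of 727 residues, had 7.60% in fraction 1 and 30.2% in fraction 3. Both the light calls and these medians leaned on fraction 1. Without that library 28 of the 80 ribosomal proteins, 19 of the 53 histones, 38 of the 76 mitochondrial ribosomal proteins and 16 of the 37 complex I subunits leaned light.

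**Figure D2:**
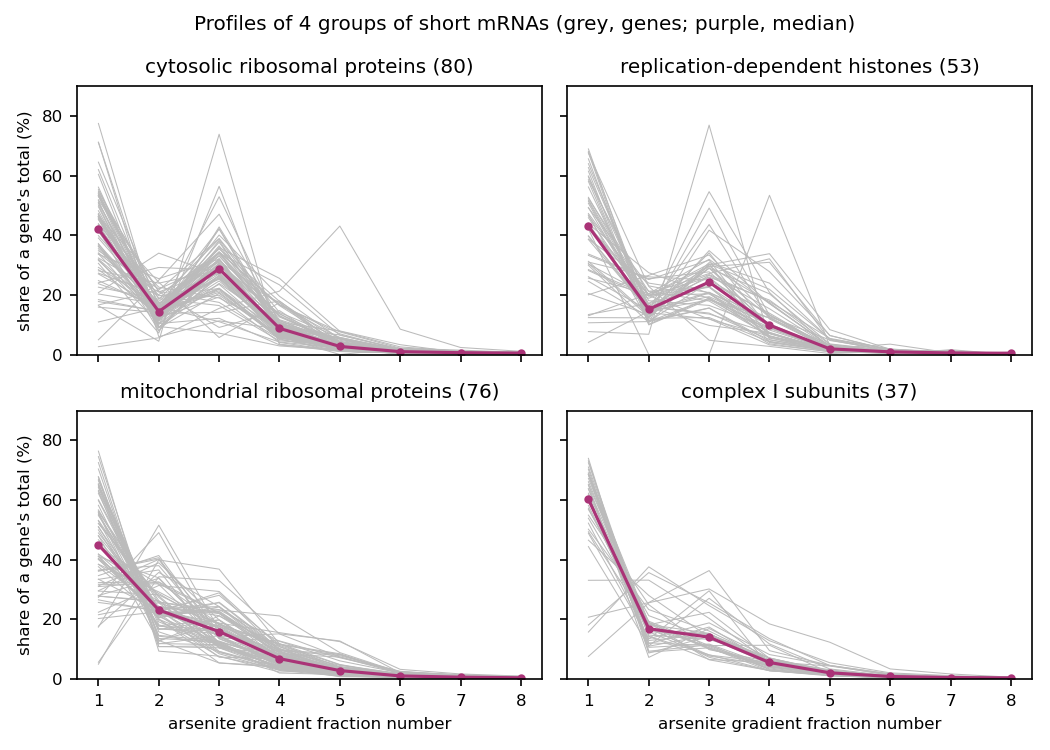
Share of a gene's total (vertical axis, percent) in each arsenite fraction (horizontal axis) for 4 lists of short mRNAs, with a grey line per gene and the median in purple. The medians of cytosolic ribosomal proteins and histones dip in fraction 2, to 14.4% and 15.2%, while those of the mitochondrial lists fall from fraction 1 onwards.

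Weighting the fractions by size factors left the contrast between these lists in place, although dips became more common. The dip was then present in 70 of 80 ribosomal proteins and 39 of 53 histones. It was present in 15 of 76 mitochondrial ribosomal proteins, 13 of 37 complex I subunits and 4332 of all 13148 genes. Mitochondrial ribosomal proteins thus had the dip less often than genes in general, and complex I subunits about as often. Set against genes of like protein length, the median relative ratio was −0.27 for cytosolic ribosomal proteins and 0.09 for histones. It was −0.74 for mitochondrial ribosomal proteins and −0.77 for complex I. Against genes of like mRNA length the 4 medians were 0.09, 0.13, −0.72 and −0.77 in this order. That of cytosolic ribosomal proteins thus changed sign with the kind of length. The median histone mRNA has 432 nt, against 1004 nt in the shortest of the 10 bins of mRNA length. The value for histones may therefore not be against genes as short as they are.

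Other mRNAs of the translation machinery were split. Among 20 elongation factors and further mRNAs that begin with a terminal oligopyrimidine tract, 8 leaned light (4 without fraction 1) and 3 heavy. The dip was present in 9. Their median was −0.60, of −0.40 against genes of like protein length and of 0.02 against genes of like mRNA length. EEF1A1, which brings aminoacyl-tRNA to the ribosome, had 3.89% in fraction 1, 33.5% in fraction 3 and 21.0% in fraction 5, with a relative ratio of 1.15 (0.72 without fraction 2). HNRNPA1, a splicing regulator, was the heaviest, at 1.66, with 26.0% in fraction 5. BTF3, a factor that binds nascent chains, was the lightest at −2.20 (−0.96 without fraction 1), with 61.0% in fraction 1. PABPC1, the cytoplasmic poly(A)-binding protein, had 37.2% in fraction 2 and lay at −1.03, but at −0.96 without fraction 2 and −0.90 without fraction 4.

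The mRNAs of very long proteins lay at the other end. All 38 measured members of a list of giant mRNAs leaned heavy, with a median relative ratio of 2.61, and 37 peaked in fraction 5. Their shares in fraction 5 ran from 21.8% for LAMA5 to 60.7% for MLL2, with a median of 41.6%, and their shares in fraction 1 from a listed 0 for EPPK1 to 10.8% for AHNAK. LAMA5, a laminin chain of the basement membrane, was the member that peaked in fraction 4, at 33.6%. MACF1, which links microtubules to actin, had 5.60% in fraction 1, 6.27% in fraction 3, 11.2% in fraction 4, 47.1% in fraction 5 and 14.8% in fraction 6. AHNAK, a scaffold protein, had 31.1% in fraction 5 and 14.8% in fractions 7 and 8 together. With size factors 22 of the 38 peaked in fraction 5, while over all 13148 genes the count rose from 1108 to 2035.

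Among genes with no 0, the 10 that leaned furthest heavy and held the call without any single fraction were MYH3, CACNG8, MDN1, PLEC, CACNA1H, MLL2, SOGA1, EML6, AHNAK2 and KSR2, from 4.06 for MYH3 to 3.51 for KSR2. MYH3, the embryonic myosin heavy chain, had 10.7% in the light fractions, 20.2% in fraction 4, 61.8% in fraction 5 and 5.08% in fraction 6. MDN1, a giant ATPase of ribosome assembly, had 11.3% in the light fractions, 7.74% in fraction 4, 55.3% in fraction 5 and 15.3% in fraction 6. CACNA1H, a calcium channel, had 13.7% in the light fractions and peaked in fraction 4, at 48.6%. The highest share in fraction 4 was 51.0%, for COL7A1, the collagen of anchoring fibrils, and PRX, a protein of myelinating cells, had 48.2% there.

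Fraction 5 was the peak of 1108 genes, chosen by that value, so their shares are a description. Their median shares in fractions 1 to 8 were 6.84%, 9.84%, 16.5%, 21.2%, 30.9%, 7.75%, 3.25% and 1.32%. Fraction 5 held from 20.3% to 89.4% of a member's total, and over 50% for 53 members, of which 8 had no 0. The second-largest share was in fraction 4 for 704 and in fraction 3 for 273. There were 92 members that had passed the next fraction by under 1 percentage point, with a median of 25.5% in fraction 5, and 101 genes that had missed by under 1 point, with a median of 24.8%. Of the members 178 (16.1%) had a 0, against 8.47% of all genes. By a looser rule, fraction 5 above both fractions 4 and 6, there were 3130 genes (23.8%).

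The rule did not use the lengths of these genes. The median protein had 1191 residues, against 451 for other genes, and the median mRNA 6523 nt against 2983 nt. The longest of the 10 bins held 545 of the 1095 members with a length (49.8%). Of 376 proteins over 2000 residues, 263 (69.9%) peaked in fraction 5, and of 3314 under 300 residues, 45 (1.36%) did. The 10 members with the highest share and no 0 were CACNG8 (69.0%), MYH3, MLL2, STARD9, MDN1, ZC3H13, PCNT, HECTD4, NBPF10 and UBR4 (49.5%). STARD9 is a kinesin and PCNT a scaffold of the centrosome, UBR4 is a ubiquitin ligase, and NBPF10 belongs to a family of near copies that can share reads.

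CACNG8, an auxiliary subunit of glutamate receptors, has 425 residues and stood out in this company. Its shares in fractions 1 to 6 were 1.24%, 2.05%, 8.26%, 10.3%, 69.0% and 7.18%. Smaller proteins were also present in the group, and 27 under 300 residues had no 0. Chosen from these after their values were seen, IGIP, a secreted peptide of 53 residues on an mRNA of 3458 nt, had 39.9% in fraction 5. LIN28B, the RNA-binding protein that blocks let-7 maturation, has 250 residues on an mRNA of 5505 nt, and had 32.2%. Members with shorter mRNAs, likewise chosen after their values were seen, were C7orf53 (1870 nt, 38.6%) and IL18BP (1354 nt, 31.6%). RPL7L1, named as a ribosomal protein paralog, has 255 residues on an mRNA of 3769 nt, against a median of 850.5 nt in its list. It had 43.1% in fraction 5 and a relative ratio of 2.72, and was the 1 member of its list that leaned heavy. The 45 small proteins of the group had a median mRNA of 2342 nt, against 1738 nt for all genes under 300 residues.

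Long proteins on the light side were few, at 1.07% of the longest bin and 1.77% of the next. ITGAE, an integrin chain of 1179 residues, had 65.4% in fraction 1 and lay at −2.47. NOTCH4, ZFPM1 and GNAS, named after their values were seen, lay at −2.43, −1.72 and −1.69 although their annotated proteins have 2003, 1006 and 1037 residues. GNAS has a much shorter common form, so the annotated length may not apply.

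**Figure D3:**
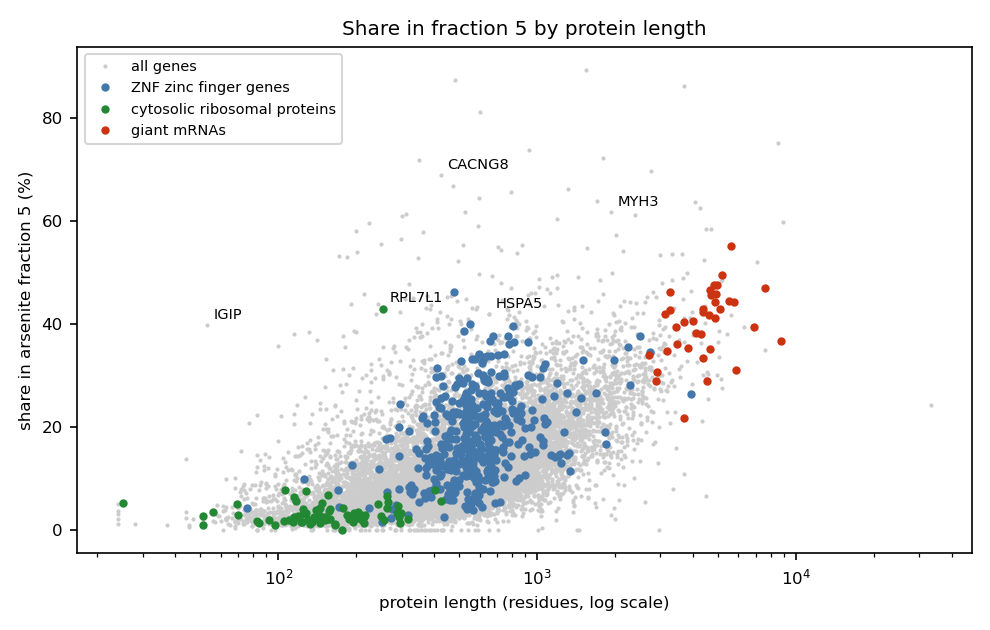
Share in arsenite fraction 5 (vertical axis, percent) against annotated protein length (horizontal axis, residues, log scale), 1 point per gene, with 3 lists in colour. Giant mRNAs lie between 21.8% and 60.7%, among long proteins (MLL2, with no annotated length, is not drawn), and the short IGIP and RPL7L1 lie at 39.9% and 43.1%.

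Zinc finger genes lay on the heavy side, also when set against genes of like length. Genes with the ZNF name numbered 434, of which 136 leaned heavy, 21 leaned light and 78 (18.0%) peaked in fraction 5, with a median relative ratio of 0.63, of 0.41 against genes of like protein length and of 0.47 against genes of like mRNA length. In the reference proteins, C2H2 fingers were counted as C, 2 to 4 residues, C, 12 residues, H, 3 to 5 residues, H. The median ratio was −0.04 for 12330 genes with no match, 0.48 with 1 to 5, 0.63 with 6 to 10, 0.70 with 11 to 15 and 1.03 with 16 or more. Against genes of like protein length these medians were −0.03, 0.25, 0.42, 0.47 and 0.53. The share of genes peaking in fraction 5 was 7.84% with no match and 40.0% of the 80 genes with 16 or more. ZNF reads can be shared between related genes. With size factors 175 of the 434 peaked in fraction 5, against 2035 of all 13148 genes. With 1 of fractions 1 to 6 left out, from 99 (fraction 5) to 193 (fraction 4) of the 434 leaned heavy. Of 36 ZBTB factors, which also carry fingers, 11 leaned heavy and none light, and without fractions 2 and 3 there were 6 and 18 that leaned heavy. Without fraction 2 there was 1 that leaned light.

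ZNF404 is shown as a case, chosen after its values were seen as the gene with at least 11 fingers, no 0 and the highest share in fraction 5. It had 3.75% in fraction 1, 16.5% in fraction 2, 12.5% in fraction 3, 21.4% in fraction 4, 40.2% in fraction 5 and 3.98% in fraction 6. The first 3 of its finger units are printed to show the repeat that such reading frames carry. They lie in exon 3 of 3, on the minus strand of GRCh38, at chr19:43873650-43873733, chr19:43873566-43873649 and chr19:43873482-43873565, and each has 84 nt. Capitals mark the codons of the cysteines and histidines that hold the zinc ion.
ZNF404 unit 1: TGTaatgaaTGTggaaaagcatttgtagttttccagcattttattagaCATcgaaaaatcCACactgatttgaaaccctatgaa
ZNF404 unit 2: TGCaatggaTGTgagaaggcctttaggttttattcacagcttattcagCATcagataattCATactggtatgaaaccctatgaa
ZNF404 unit 3: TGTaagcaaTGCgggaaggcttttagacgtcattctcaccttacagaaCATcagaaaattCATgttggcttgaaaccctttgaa
The unit repeats with the spacing of the zinc-binding codons kept and the letters between them changed.

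Hydrophobic stretches, a mark of membrane proteins, went with little difference. The median ratio was −0.04 for genes with no window of 19 residues at a mean Kyte-Doolittle value of 1.6 or more, 0.10 with 1, 0.03 with 2 to 5 and 0.17 with 6 to 10. The 84 genes with 11 or more had a median of 0.85, which was −0.22 against genes of like protein length and 0.11 against genes of like mRNA length. Upstream ATG triplets went with a higher ratio, from −0.19 with none to 0.52 with 11 or more, which was −0.09 and 0.38 against genes of like protein length. Against genes of like mRNA length the values were −0.03 and 0.03, with 0.13 at most in between (6 to 10 triplets).

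Extracellular matrix and adhesion genes were mostly heavy. Of 54 collagens, laminins and integrins, 37 leaned heavy and 1, ITGAE, light, with a median of 1.29, and without fractions 2 and 3 there were 3 and 2 that leaned light. The median was 0.06 against genes of like protein length and 0.44 against genes of like mRNA length. COL5A2, a fibrillar collagen named after its values were seen, had 36.2% in fraction 4 and 33.0% in fraction 5. Of 28 protocadherins and cadherins, 16 leaned heavy and none light (1 without fraction 5), and the median was 0.08 against like protein length and 0.37 against like mRNA length. Transporters of the SLC families other than SLC25 spread to both sides, with 32 of 166 heavy and 20 light (12 without fraction 2). Of 40 SLC25 carriers of the mitochondrial inner membrane, 9 leaned light (22.5%, near the 21.4% of all genes) and 2 heavy. The median of these carriers was −0.69, of −0.06 against genes of like protein length and of −0.29 against genes of like mRNA length. Without fractions 3 and 4 there were 20 and 16 of these carriers on the light side, and 1 on the heavy side without fraction 2 or 5.

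The mRNAs known for translation when eIF2 is phosphorylated were spread over both sides. Of 17, 6 leaned heavy, 2 light (1 without fraction 2) and 9 neither, and the median relative ratio was 0.69 (0.65 against like protein length and 0.22 against like mRNA length). ATF4, the transcription factor that leads this response, had 4.61% in fraction 1, 13.3% in fraction 2, 20.1% in fraction 3, 34.9% in fraction 4, 5.03% in fraction 6 and 59.0% in fractions 4 to 6 together, a ratio of 1.76. PPP1R15A, which brings the phosphatase to eIF2, had 5.51%, 14.0%, 15.0%, 22.0%, 29.7% and 9.77% in fractions 1 to 6, a ratio of 1.95. Thus the largest share of ATF4 was in fraction 4 and that of PPP1R15A in fraction 5. DDIT3, a factor of stress-induced cell death, had 3 fractions of like size, with 26.7% in fraction 1, 22.4% in fraction 3 and 21.4% in fraction 4, and lay at 0.41. UCP2, a mitochondrial carrier, was the lightest, with 47.0% in fraction 2 and a ratio of −1.56. The protein of ATF4 has 351 residues and that of UCP2 309, so they differed by 3.32 in the log2 ratio at like protein length.

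Genes that ATF4 is known to activate lay near the median gene. Of 19, 1 leaned heavy and 1 light. Without fraction 3 there were 2 heavy and 5 light, and without fraction 4 there were 6 light. The heavy one was SLC7A11, the cystine transporter, with 28.2% in fraction 5 and a ratio of 1.88, and the light one PYCR1, an enzyme of proline synthesis, at −1.36 (−0.79 without fraction 2). Of the 25 early stress genes, 1 leaned heavy (2 with fraction 1, 2 or 3 left out) and 3 light (7, 8 and 1 without fractions 3, 4 and 5), and the lightest was KLF2, a transcription factor, at −1.77. MYC, another transcription factor, had 29.0% in fraction 2 and 30.6% in fraction 3, and lay at 0.02.

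Chaperones were spread along the gradient. HSPA5, the HSP70 of the endoplasmic reticulum, was the heaviest of 20 chaperones of that compartment, of which 2 leaned heavy (1 without fraction 2) and 4 light. Its shares in fractions 1 to 6 were 6.14%, 5.57%, 13.0%, 22.9%, 42.0% and 7.08%, and its ratio was 2.64. HSP90B1, the HSP90 of the same compartment, peaked in fraction 3 at 34.0% and lay at 0.32. CALR, which folds glycoproteins, leaned light, with 51.7% in fraction 2 (a ratio of −0.75 without that fraction), and MANF, a small secreted factor, had 40.8% in fraction 1 and lay at −1.88. The cytosolic HSP70, HSP110 and HSP90 genes kept together, with 10 of 11 peaking in fraction 3 and ratios from −1.06 for HSPA14 to 0.81 for HSPA1L. Several of them are near copies, and their reads can be shared.

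**Figure D4:**
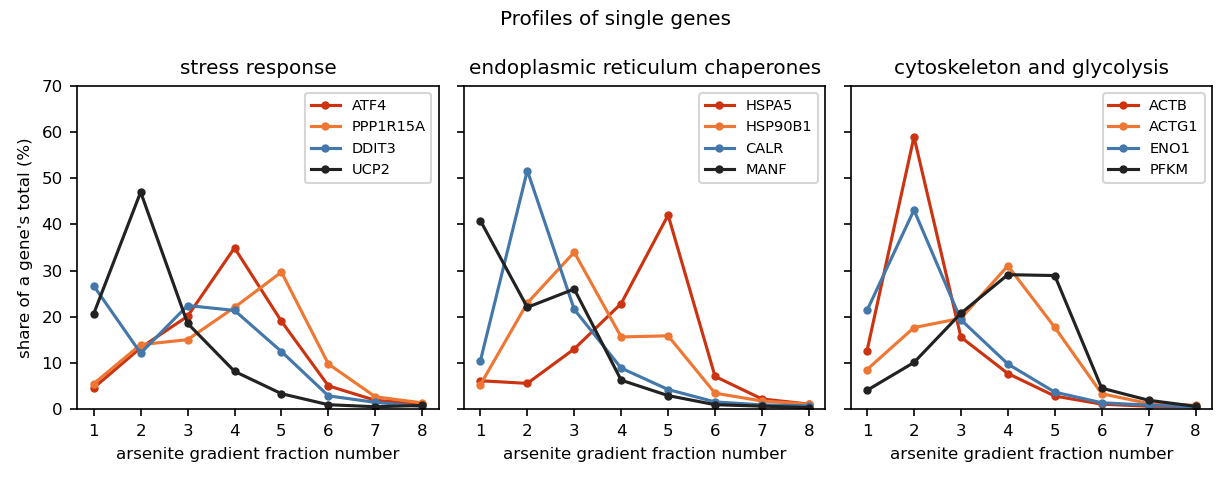
Share of a gene's total (vertical axis, percent) in each arsenite fraction (horizontal axis) for 12 single genes in 3 panels. HSPA5 peaks in fraction 5 at 42.0% and CALR in fraction 2 at 51.7%, and ACTB and ACTG1 peak in fractions 2 and 4 at 59.0% and 31.0%.

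Genes of like length and kin could lie far apart. ACTB and ACTG1 encode the cytoplasmic actins, each of 375 residues. ACTB had 12.7% in fraction 1, 59.0% in fraction 2, 15.6% in fraction 3 and 11.6% in the heavy fractions. ACTG1 had 8.57%, 17.7% and 19.7% in the same light fractions and 52.1% in the heavy ones. Their relative ratios were −1.67 (−0.91 without fraction 2) and 1.32. Reads can be shared between these close paralogs. Of 12 tubulins and actins 8 leaned light and 1 heavy (2 without fraction 5), with a median of −1.59, of −1.39 against genes of like protein length and of −0.93 against genes of like mRNA length. TUBG1, the gamma-tubulin of the centrosome, had 40.4% in fraction 1 and 40.1% in fraction 2, and TUBB, a beta-tubulin, lay at −0.02.

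Glycolytic enzymes gave a second such case. Of 16, 6 leaned light and 1 heavy, with a median of −0.90, and without fraction 5 there were 3 that leaned light. Without fractions 3 and 4 there were 3 and 2 that leaned heavy. ENO1, which makes phosphoenolpyruvate, had 43.1% in fraction 2 and lay at −1.29, and GAPDH had 45.4% in fraction 1 and lay at −1.03 (−0.16, −0.71 and −0.96 without fractions 1, 5 and 6). PFKM, the muscle form of phosphofructokinase, was the heavy member, with 29.1% in fraction 4 and 28.9% in fraction 5 and a ratio of 1.96. PFKP and PFKL, the platelet and liver forms, named after their values were seen, had 47.7% and 47.3% in fraction 2 and lay at −0.92 and −0.72. The 3 forms have 780 to 784 residues.

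Argonaute and silencing genes were mostly heavy. Of 18, 12 leaned heavy and 2 light, with a median of 1.33, of 0.21 against genes of like protein length and of 0.34 against genes of like mRNA length. Without fraction 2 there were 8 that leaned heavy, with a median of 0.88, and without fraction 5 there were 10. TNRC6B, a partner of Argonaute that recruits the deadenylase, was the heaviest, at 3.06, with 37.0% in fraction 5 and 18.2% in fraction 6. DICER1, which cuts microRNA precursors, had 28.7% in fraction 5 and lay at 1.94, and EIF2C2, which encodes Argonaute 2, had 27.1% in fraction 4 and lay at 1.70. The light members were the partners of Dicer that bind double-stranded RNA. PRKRA had 46.9% in fraction 2 and lay at −1.91, and TARBP2, named after its values were seen, had 36.6% there and lay at −1.85.

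Stress granule proteins lay close to the median gene, with 2 of 22 heavy, 1 light and a median of 0.23. Without fraction 4 there were 4 heavy and 3 light. YBX1, a cold-shock domain protein, was the lightest at −1.71, with 48.8% in fraction 2. CAPRIN1, a partner of the granule scaffold G3BP1, lay at 0.14. Of 34 proteasome subunits 20 leaned light and none heavy, but without fraction 1 there were 5 and 1. Of 18 mitotic cyclins and kinases 10 leaned light and 1 heavy, against 6 light without fraction 1, 2 heavy without fraction 4 and none heavy without fraction 5. Among 22 enzymes of the citric acid cycle 6 leaned light and 1 heavy (none without fraction 2). Among 23 sterol synthesis genes the counts were likewise 6 and 1, with 3 light without fraction 5, 2 heavy without fraction 3 and none heavy with fraction 1, 2 or 4 left out.

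The remaining lists stood near the median gene. The median was −0.47 for 8 subunits of the CCT chaperonin, −0.17 for 20 cytosolic and 0.05 for 17 mitochondrial aminoacyl-tRNA synthetases, and 0.53 for 7 MCM and related replication genes. The 35 HOX factors, with 7 heavy and none light (3 without fraction 3), had a median of 0.15, which became 0.86 against genes of like protein length. Set this way, giant mRNAs lay at 0.75 and ZBTB factors at 0.42. Against genes of like mRNA length the medians were 0.98 for HOX factors, 0.99 for giant mRNAs and 0.29 for ZBTB factors. For giant mRNAs neither value is against genes as long as they are. Their median protein has 4544 residues, against 1618 in the longest of the 10 bins of protein length. In that bin the ratio still had a correlation of 0.50 with protein length.

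**Figure D5:**
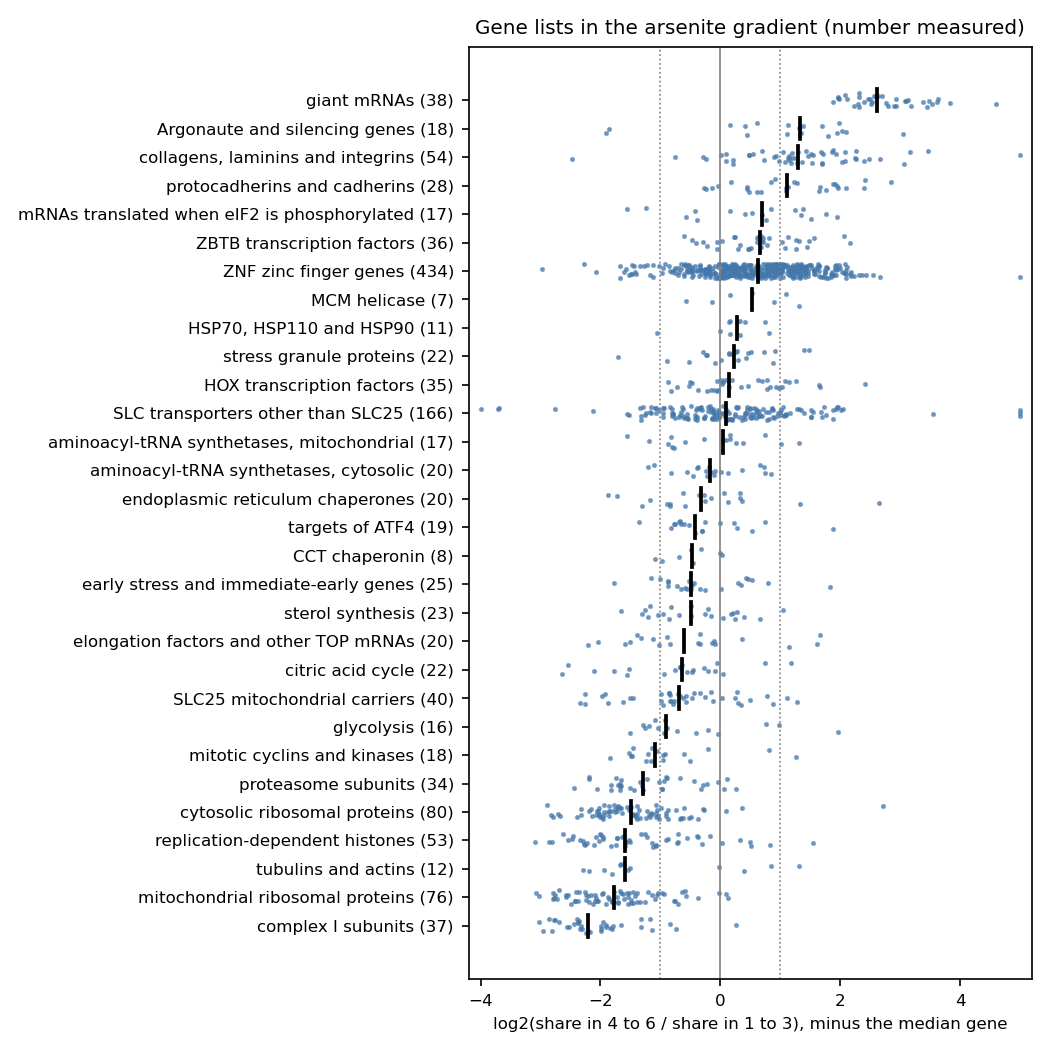
Relative log2 ratio of heavy to light share (horizontal axis, 0 is the median gene, dotted lines mark the calls at −1 and 1) for members of 30 gene lists (vertical axis, number measured in brackets), 1 point per gene and a bar at the median. Medians run from −2.20 for complex I subunits to 2.61 for giant mRNAs, and points beyond −4 or 5 are drawn at those values.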

How the data were processed

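The authors deposited 1 table of 13148 genes whose values are in the unit fraction, the share of a gene's total in each gradient fraction. They are printed in percent. Per the submitters' processing notes, reads were placed on hg19. How reads were aligned and counted, the depth and the weighting of fractions were not given in the sources used here. Only the 8 arsenite columns were used.

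Shares in fractions 4 to 6 and 1 to 3 were compared as a log2 ratio with a pseudocount of 1 percentage point, minus the median gene, and called at a 2-fold difference. Scripts ran in Python 3.11.15 with pandas 2.3.3 and were tested on simulated data. Lengths and sequences came from 1 transcript per gene of GENCODE release 29 (GRCh38), matched by symbol for 12316 genes and by an older RefSeq symbol for 718. Genes of like length were taken in 20 bins.

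Members, lists and tests were chosen with earlier results of these data known. Named genes were the 10 furthest in each direction whose call held without each of fractions 1 to 6, those with the highest share in each fraction (10 in fraction 5, 3 in others), all with no 0, the highest, middle and lowest member of each list, and 22 single genes. Further genes were picked after their values were seen. They are NDUFB1, CAPRIN1, G3BP1 and those so marked in the text. Some named genes are not reported here.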

Additional observations from a re-analysis of the deposited data

How the results depend on the processing

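No paired analysis was possible because each fraction has 1 library. With thresholds of 1.5-fold and 4-fold, 4021 and 695 genes leaned heavy, and at 4-fold 756 leaned light. Under the other alternatives, which were size factors, genes with no 0, pseudocounts of 0.1 and 10, other definitions of light and heavy, and each of fractions 1 to 6 left out, heavy counts ran from 2046 to 3812 and light counts from 1950 to 3859. With size factors 2035 genes peaked in fraction 5, and the median light share was 39.5%. By the looser rule, which does not ask for the largest share to be in fraction 5, there were 3130 genes. Size factors changed the sign of no list median but moved those of cytosolic ribosomal proteins to −2.25, mitochondrial ribosomal proteins to −2.42, complex I to −3.01 and histones to −2.43. Without fraction 1 the medians of cytosolic ribosomal proteins, complex I and histones were −0.86, −0.88 and −0.71. Against genes of like protein length 5 list medians changed sign. They were histones (0.086), early stress genes (0.31), HSP70, HSP110 and HSP90 (−0.05), SLC transporters (−0.06) and mitochondrial synthetases (−0.31). From 1 to 2 list medians changed sign without each of fractions 1, 2, 4, 5 and 6. Single genes that were called heavy or light turned sign with fractions 1 and 2 against 5 and 6 (FRRS1L 1.82, PDZD7 0.39, HIST1H1T −2.09), with size factors (HIST1H1T −0.21), and without 1 fraction (TPRKB 0.39 without fraction 1, MRAP2 0.017 and MTRNR2L8 1.53 without fraction 2, CORO6 0.051 and FRRS1L 1.38 without fraction 3, HIST1H1T −1.45 without fraction 4). Among the 147 named genes, called or not, 9 changed sign with fractions 1 and 2 against 5 and 6, and 4 with size factors. Without fractions 1 to 6 in turn, 5, 8, 5, 7, 2 and 2 of them did. The cause of these changes was not tested. Correlations with length ran from 0.56 to 0.68 over the alternatives. Depth is unknown, so the counting error of a share cannot be given. List counts, dips and length correlations under alternatives were added after seeing the data.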
